A study of Homo sapiens with 9 samples.

Results

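The DNA replication and G1-S genes described here are 47 genes, picked by symbol from a table of 56809 genes measured by RNA sequencing in MDA-MB-468 cells. The list spans origin licensing, the replicative helicase and its activators, the replicative polymerases, the sliding clamp and its loader, nucleotide supply, G1-S regulators and chromatin replication. Its rule also names E2F targets. The list names symbols and sets no threshold on measured values, and all 47 genes passed the filter on low counts. MDA-MB-468 is an established human breast adenocarcinoma line, so all libraries come from 1 line. The study compared 3 groups of 3 libraries. Control cells carried pSicoR, a lentiviral vector for hairpin expression, without an insert, and the other groups carried the hairpin shLMO2-1 or shLMO2-2. Such hairpins are cut by the cell into small RNAs that direct the breakdown of a matching transcript, here that of LMO2, which encodes a LIM-domain cofactor of transcription. The labels do not say how long after infection the cells were taken, whether infected cells were selected, or whether replicates came from separate cultures. The p-values therefore measure the spread between these libraries, which may be technical.

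A cell copies its genome once per division. In late mitosis and G1, the origin recognition complex with CDC6 and CDT1 loads the MCM2-7 ring onto origins (licensing), and geminin, encoded by GMNN, binds CDT1 to block loading once S phase has begun. Cyclin E with its kinase and the E2F transcription factors drive entry into S phase, when CDC45 and the GINS complex turn the ring into an active helicase and the polymerases, held by the PCNA clamp, copy both strands. Many of these genes are known E2F targets, so that their transcripts rise together as cells pass from G1 into S phase.

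The promoters were examined for E2F sites, since E2F control is what these genes are best known to share. Because the rule that picked the genes names E2F targets, their share of E2F sites may partly follow from that choice. RefSeq promoter windows (GRCh38.p14, 300 bases, from 250 before to 50 after a start site) were found for 42 of the 47 genes, as 54 windows. The letters searched were TTTCCCGC, TTTGGCGC, TTTCGCGC and TTTGCCGC on both strands. A match was present in 23 of the 54 windows (42.6%), belonging to 22 genes, and in 1164 of all 35093 windows of the table (3.32%). Among windows of protein-coding genes the share was 4.1%. In lists of related genes it was 25.5% of 47 windows of other replication fork and origin genes and 12.1% of 33 windows of mitosis genes. It was 9.3% of 43 windows of cyclin, CDK, RB and E2F genes. The CCAAT box (CCAAT, both strands) was in 57.4% of the windows of the 47 genes and in 34.6% of all windows. In the 3 related lists, in the same order, its share was 53.2%, 78.8% and 30.2%. The CHR element of mitotic promoters (TTTGAA, both strands) was in 1.85% of the windows of the 47 genes, in 15.2% of all windows and in 54.5% of the mitosis windows. No motif contains another, though matches may overlap in a window. A match is a description of the letters and not evidence of binding. Of the 5 genes that passed the test in a comparison below with control, MCM3, GINS2 and GMNN had a match and ORC6 and PRIM2 had none in their windows. These 3 promoters are shown because their transcripts were lower in a hairpin group, and that of E2F1 because it held a pair of matches and its transcript was above every control in all 6 hairpin libraries. Each is printed 5′ to 3′ on the gene's strand, with the first 270 bases of the window, of which the last 20 follow the start site inclusive, and capitals mark the E2F matches.
GMNN (chr6:24775163-24775432, plus strand, the downstream of 2 windows): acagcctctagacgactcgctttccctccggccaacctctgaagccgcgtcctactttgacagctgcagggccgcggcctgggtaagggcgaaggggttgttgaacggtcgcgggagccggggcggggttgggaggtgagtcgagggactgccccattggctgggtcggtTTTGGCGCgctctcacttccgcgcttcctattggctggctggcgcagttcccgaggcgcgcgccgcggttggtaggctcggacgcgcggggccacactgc
MCM3 (chr6:52284723-52284992, minus strand): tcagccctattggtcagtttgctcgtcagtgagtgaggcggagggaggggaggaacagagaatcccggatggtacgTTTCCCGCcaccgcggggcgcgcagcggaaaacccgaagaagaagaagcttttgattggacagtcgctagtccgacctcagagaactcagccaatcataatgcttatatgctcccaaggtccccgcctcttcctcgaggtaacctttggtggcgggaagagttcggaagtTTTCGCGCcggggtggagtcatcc
GINS2 (chr16:85688935-85689204, minus strand): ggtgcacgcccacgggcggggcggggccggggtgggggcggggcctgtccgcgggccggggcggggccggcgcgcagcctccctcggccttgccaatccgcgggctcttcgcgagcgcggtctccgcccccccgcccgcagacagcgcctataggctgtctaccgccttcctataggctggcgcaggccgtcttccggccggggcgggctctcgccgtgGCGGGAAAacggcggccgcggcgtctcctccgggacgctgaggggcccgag
E2F1 (chr20:33686366-33686635, minus strand): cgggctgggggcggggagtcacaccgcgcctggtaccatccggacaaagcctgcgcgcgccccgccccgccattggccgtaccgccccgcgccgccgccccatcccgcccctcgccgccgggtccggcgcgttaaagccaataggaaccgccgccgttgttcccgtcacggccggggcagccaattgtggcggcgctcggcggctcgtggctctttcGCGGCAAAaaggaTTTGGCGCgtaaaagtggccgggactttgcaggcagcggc

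In GMNN the match is TTTGGCGC, 80 bases before the start site of that window, and the upstream GMNN window (chr6:24774687-24774986) had no match. MCM3 has TTTCCCGC 174 bases and TTTCGCGC 4 bases before its start site. GINS2 has TTTCCCGC on the other strand, 31 bases before the start. E2F1 has TTTGCCGC on the other strand at 33 bases and TTTGGCGC at 20 bases before the start.

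Libraries held between 15494486 and 23069456 counts, and mitochondrial genes took 1.33% to 1.79% of them. LMO2 had 4, 35 and 19 counts in control replicates 1 to 3, 2, 1 and 6 in shLMO2-1, and 1, 4 and 3 in shLMO2-2, so control replicate 1 lay within the range of the hairpin libraries. The 6 epithelial markers EPCAM, CDH1, KRT5, KRT8, KRT18 and EGFR were all present and summed to 11920 to 12906 CPM (the count scaled to a library total of 1e6) in control, 14095 to 14994 in shLMO2-1 and 13303 to 14747 in shLMO2-2. The 10 markers of hormone-receptor, stromal, endothelial and blood cells summed to 16.4 to 24.1 CPM over all libraries, with PGR and HBB at 0 in every one. Of these 10 markers, 4 had enough counts to be tested, and in the mean of both hairpins CD68 rose (1.32, adjusted p = 0.0216) and ESR1 fell (−0.78, adjusted p = 0.0342, edgeR). CD68 had 11 to 13 counts in a control library and 20 to 41 in a hairpin library, and ESR1 had 77 to 119 and 39 to 92. The CD68 call was lost without any 1 of the controls (adjusted p = 0.0535 to 0.0839), and that of ESR1 without control replicate 1 or 2, shLMO2-1 replicate 1 or 3 or shLMO2-2 replicate 2 or 3 (0.0598 to 0.108, edgeR). Their part in the values of the replication genes was not tested. Members rested on 154 counts (POLE2, the lowest in a library) to 21230 counts (RRM2, the highest). Their depth was thus far above that of the target gene.

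Most of the 47 genes stayed close to their control level with either hairpin. With shLMO2-1, 5 passed the test and all 5 were lower (ORC6, GMNN, MCM3, GINS2 and PRIM2), which is 10.6% of the genes, where 8.42% of all 14709 tested genes passed, 3.88% lower and 4.54% higher. With shLMO2-2, 2 passed and both were lower (MCM3 and PRIM2), which is 4.26%, against 8.97% of all tested genes, 4.04% lower and 4.94% higher. The mean of both hairpins against control gave the same 5 genes as shLMO2-1, or 10.6%, where the share over all genes was 12.4%, with 5.93% lower and 6.47% higher. Counting both directions, the share that passed was close to the background with shLMO2-1 and in the mean, and below it with shLMO2-2, and it rests on 5 genes or fewer. No member was higher by the test, and 2 (with shLMO2-1), 3 (with shLMO2-2) and 2 (mean) were higher at an unadjusted p under 0.05. DESeq2 gave 1 higher gene, E2F1, in the mean and 0 with each hairpin alone, and limma-voom gave 0 in all 3 comparisons. With no filter on low counts, POLD2 was higher with shLMO2-2 (0.25, adjusted p = 0.0469) and in the mean (0.22, adjusted p = 0.0308). Unless another tool is named, tests are quasi-likelihood F-tests of edgeR at a threshold of 0.05, adjusted by Benjamini-Hochberg over all tested genes, and both hairpins are set against the same 3 controls. These tests do not pair libraries by replicate number. A fit with a block, a term for differences shared by libraries of the same replicate number, passed more genes, as given in the last section. In it POLD2 was higher with shLMO2-2, and POLD2 and E2F1 were higher in the mean. In bulk RNA, fewer cells in the phase that expresses a gene and less RNA per cell cannot be told apart.

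The small differences leaned to the lower side. Log2 fold changes were below 0 in 36 of 47 genes with shLMO2-1 and in 38 of 47 with shLMO2-2, against 49.8% and 50% of all tested genes. The median log2 fold change of the 47 genes was −0.07 with shLMO2-1 and −0.05 with shLMO2-2, and that of all tested genes was 0.00 in both. These data also bound the changes: the 95% interval lay within 0.5 of 0 on the log2 scale for 43 of the 47 genes with shLMO2-1 and for 46 with shLMO2-2, and for 53.8% of all tested genes in each. In the mean of both hairpins, 38 of 47 log2 fold changes were below 0 (50.5% of all genes) and 45 intervals lay within 0.5 of 0 (59.7% of all genes). Interval width depends on depth. These genes had at least 154 counts in a library, while the filter on all tested genes asked for a minimum count of 10. The shares of intervals therefore compare genes of unlike depth, and a share matched for depth was not computed. All 3 hairpin libraries lay below all 3 controls for 14 of the 47 genes with each hairpin, against 14.3% (shLMO2-1) and 14.5% (shLMO2-2) of all tested genes. All 3 lay above the controls for LIG1 and E2F1 with shLMO2-1 (14% of all genes) and for PRIM1, POLE2, E2F1 and E2F2 with shLMO2-2 (15.3% of all genes). Over both hairpins, all 6 libraries lay below the controls for 10 genes (8.59% of all genes): ORC6, CDC6, GMNN, MCM3, MCM4, GINS2, POLA1, PRIM2, RFC3 and RFC4. Only E2F1 had all 6 above (8.12% of all genes).

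**Figure D1:**
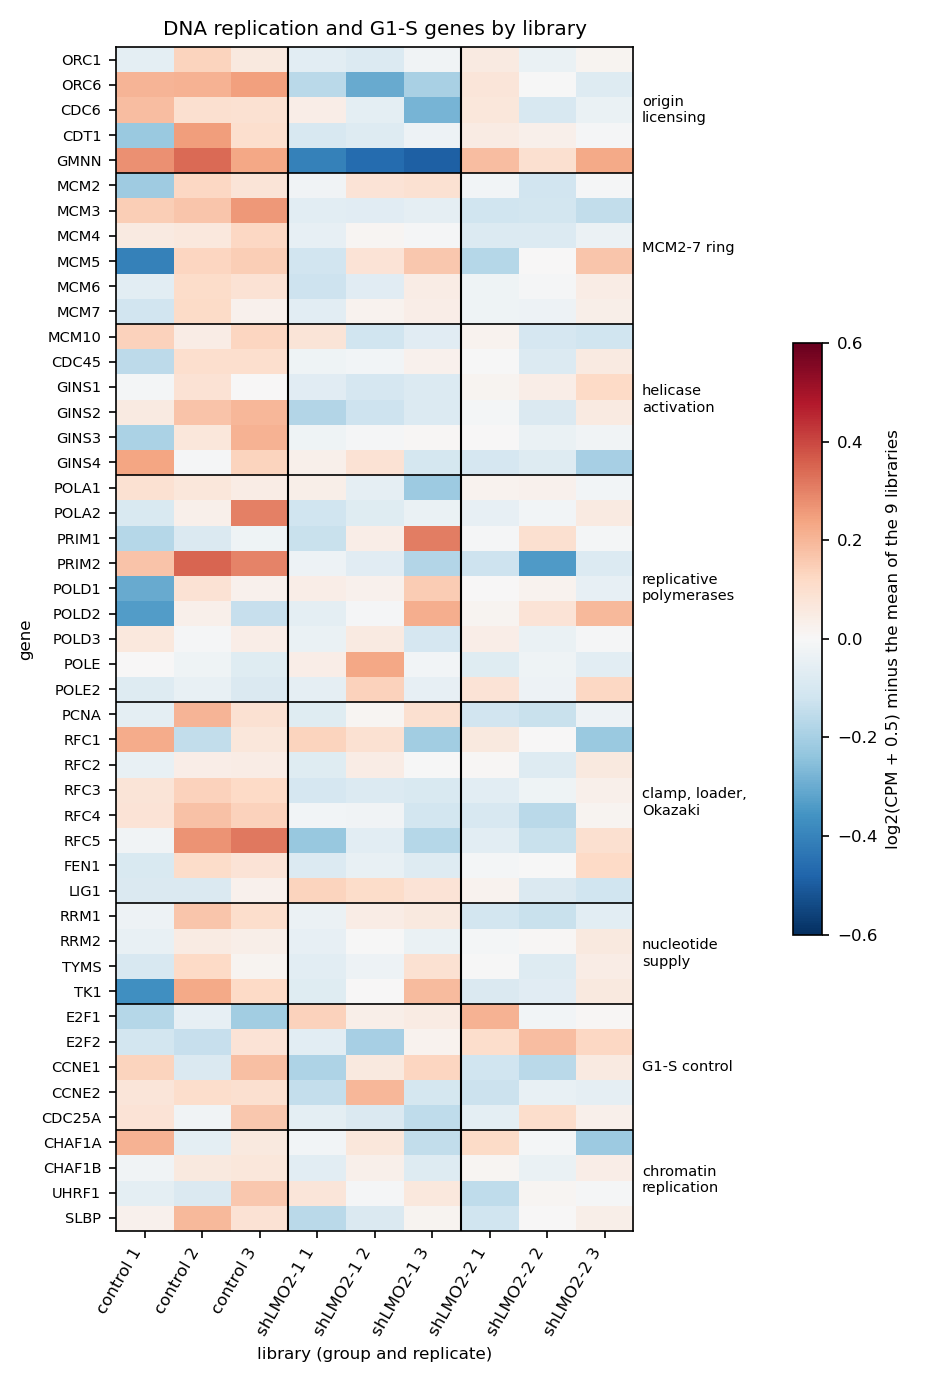
Each row is a gene, grouped by role, and each column is a library; colour gives log2(CPM + 0.5) minus the gene's mean over the 9 libraries, red higher and blue lower. GMNN is blue in the 3 shLMO2-1 columns only, MCM3, ORC6 and PRIM2 are red in all 3 control columns, and control replicate 1 is bluer than the other controls for MCM5, TK1, POLD1, POLD2 and CDT1.

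The control libraries differed among themselves in these genes. Control replicate 1 was the lowest of the 3 controls for 31 of the 47 genes (66%), against 42.1% of all tested genes. Its log2 CPM was below the mean of the other controls for 37 of 47, with a median difference of −0.09, where all tested genes had −0.01. The members furthest apart, named after their values were seen, were TK1 and MCM5 (both −0.54), CDT1 (−0.40) and POLD1 (−0.36), while RFC1 (0.27) and CHAF1A (0.21) stood the other way. This was shared with the mitosis genes, where control replicate 1 was the lowest control for 22 of 30 (73.3%). The other related lists were nearer to all tested genes. Control replicate 1 was lowest for 21 of 43 further replication fork and origin genes (48.8%). The same held for 16 of 32 cyclin, CDK, RB and E2F control genes (50%). Within shLMO2-1, replicate 1 was lowest for 25 of the 47 genes (53.2%), against 35.2% of all tested genes. Within shLMO2-2, replicate 1 was lowest for 16 (34%), against 35.4%. The median deviation of the 47 genes from the mean of the 9 libraries was −0.03, 0.09 and 0.09 in control replicates 1 to 3. It was −0.06, −0.01 and −0.03 in shLMO2-1 and −0.01, −0.03 and 0.01 in shLMO2-2. By this median, control replicates 2 and 3 stood above every hairpin library, and control replicate 1 lay within their range. In control replicate 1, the fork and origin list was at 0.08, the cyclin, CDK, RB and E2F list at 0.02 and the mitosis list at −0.03. The coefficient of variation between replicates had a median of 6.41% over the 47 genes in control, 4.90% in shLMO2-1 and 4.44% in shLMO2-2, and its highest value was 20.8%, for TK1 in control. Without control replicate 1, 8 genes passed with shLMO2-1, 5 with shLMO2-2 and 10 in the mean of both, where 9.33%, 7.55% and 10.6% of all tested genes passed. With shLMO2-1, 3 passed without control replicate 2 (5.7% of all genes) and 2 without control replicate 3 (4.32%). Without shLMO2-1 replicate 1, 2 or 3, 2 passed each time (4.51%, 3.84% and 3.63% of all genes), so that calls became fewer in the whole table as well.

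**Figure D2:**
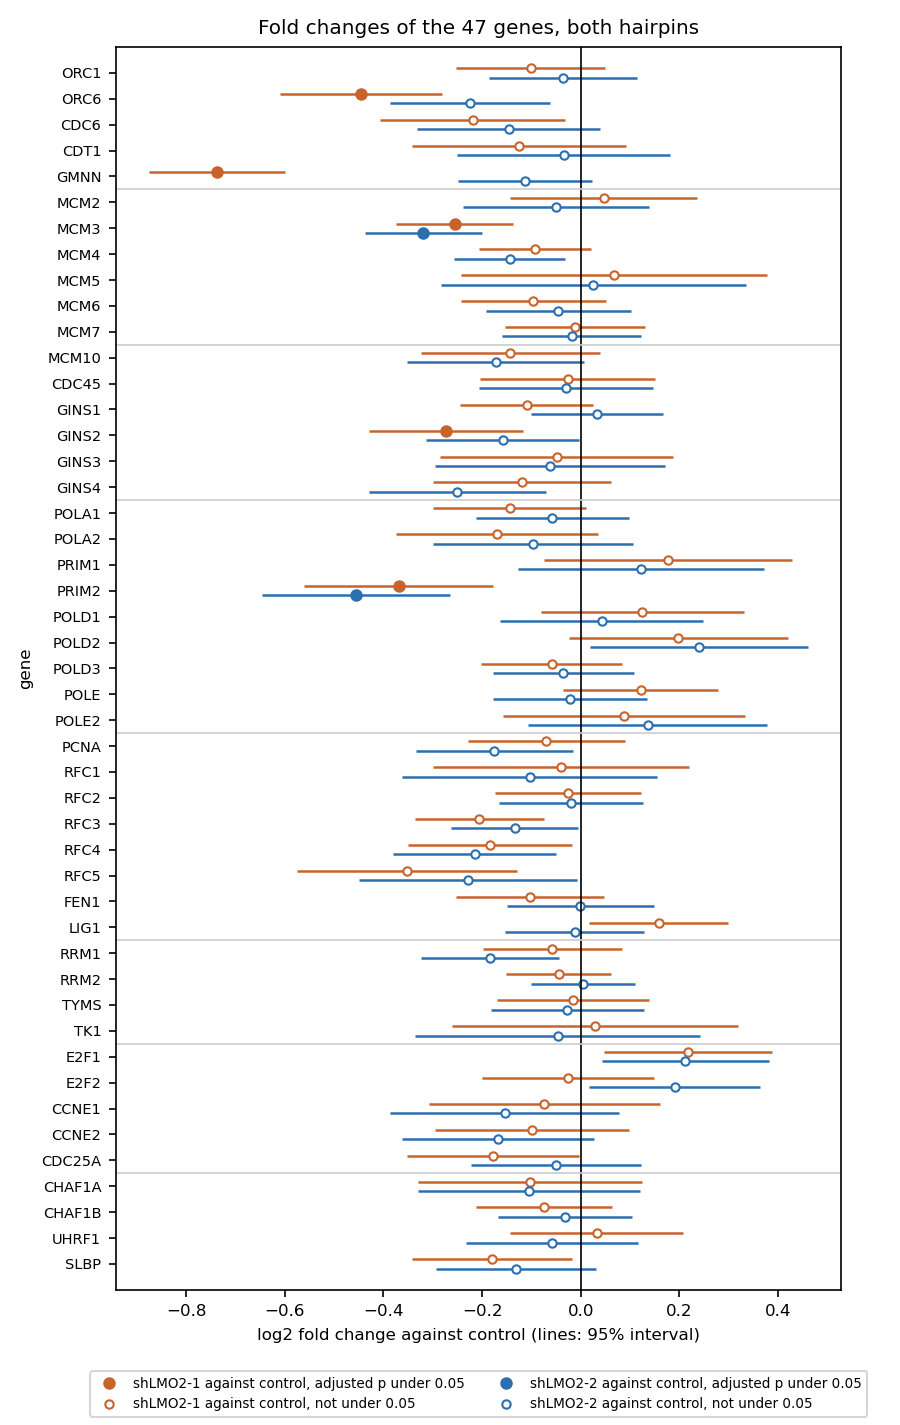
Log2 fold change of each of the 47 genes against control, for shLMO2-1 (orange) and shLMO2-2 (blue); lines are 95% intervals and filled points have an adjusted p under 0.05. The 5 filled orange and 2 filled blue points lie left of 0, GMNN with shLMO2-1 lies furthest left at −0.74, and most other intervals cross or come close to 0.

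Origin licensing held the largest change. GMNN (chromosome 6, 24774931 to 24786099, plus strand, GENCODE 29), which encodes the CDT1 inhibitor geminin, was measured at 143, 149.5 and 139 CPM in control replicates 1 to 3. It was at 89.0, 85.4 and 83.9 CPM with shLMO2-1, and at 134, 126 and 138 CPM with shLMO2-2. The shLMO2-1 libraries stood far below all others, and the shLMO2-2 libraries lay just under the lowest control. GMNN fell with shLMO2-1 by 40.0%, from 144 ± 5.57 to 86.1 ± 2.62 CPM (SD, n = 3 each), a log2 fold change of −0.74 (SE 0.0627, 95% interval −0.88 to −0.60, adjusted p = 0.000111 by edgeR's quasi-likelihood test). With shLMO2-2, at 133 ± 6.11 CPM (SD, n = 3), the log2 fold change was −0.11 (95% interval −0.25 to 0.02, adjusted p = 0.294 in the same edgeR fit). The call with shLMO2-1 held under all 18 alternatives. The mean of both hairpins rested mostly on shLMO2-1, at −0.43 (adjusted p = 0.000795, edgeR).

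ORC6 (chromosome 16, 46689643 to 46698394, plus strand), the smallest subunit of the origin recognition complex, had 44.1, 44.2 and 45.4 CPM in control, 34.0, 30.8 and 33.2 with shLMO2-1 and 40.2, 38.1 and 36.1 with shLMO2-2. The 3 groups did not overlap, and shLMO2-2 lay between the others. ORC6 fell by 0.45 on the log2 scale with shLMO2-1 (SE 0.075, adjusted p = 0.00575 by edgeR), a call that held under all 18 alternatives. With shLMO2-2 the log2 fold change was −0.22 (SE 0.0739, adjusted p = 0.0861), and between the hairpins it was 0.22 (adjusted p = 0.291, edgeR). CDC6, the loader that brings the MCM ring to the origin, was at 93.5, 88.1 and 87.7 CPM in control, 84.6, 78.9 and 67.7 with shLMO2-1 and 86.2, 77.0 and 80.1 with shLMO2-2. All 6 hairpin libraries were below the controls, but the log2 fold changes of −0.22 (adjusted p = 0.143) and −0.15 (adjusted p = 0.319) did not pass edgeR's test. In the mean of both hairpins (−0.18, adjusted p = 0.129), CDC6 passed only with a block for replicate number (adjusted p = 0.0467, edgeR). The other licensing genes, CDT1 and ORC1, had log2 fold changes from −0.13 to −0.03 with both hairpins and did not pass. Geminin and CDT1 transcripts were also set side by side per kilobase of transcript. Their ratio was 2.46, 1.86 and 1.91 in control, 1.40, 1.33 and 1.27 with shLMO2-1 and 1.92, 1.83 and 2.05 with shLMO2-2, so the shLMO2-1 libraries were below all others, and the highest control value came from replicate 1, where CDT1 was low.

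**Figure D3:**
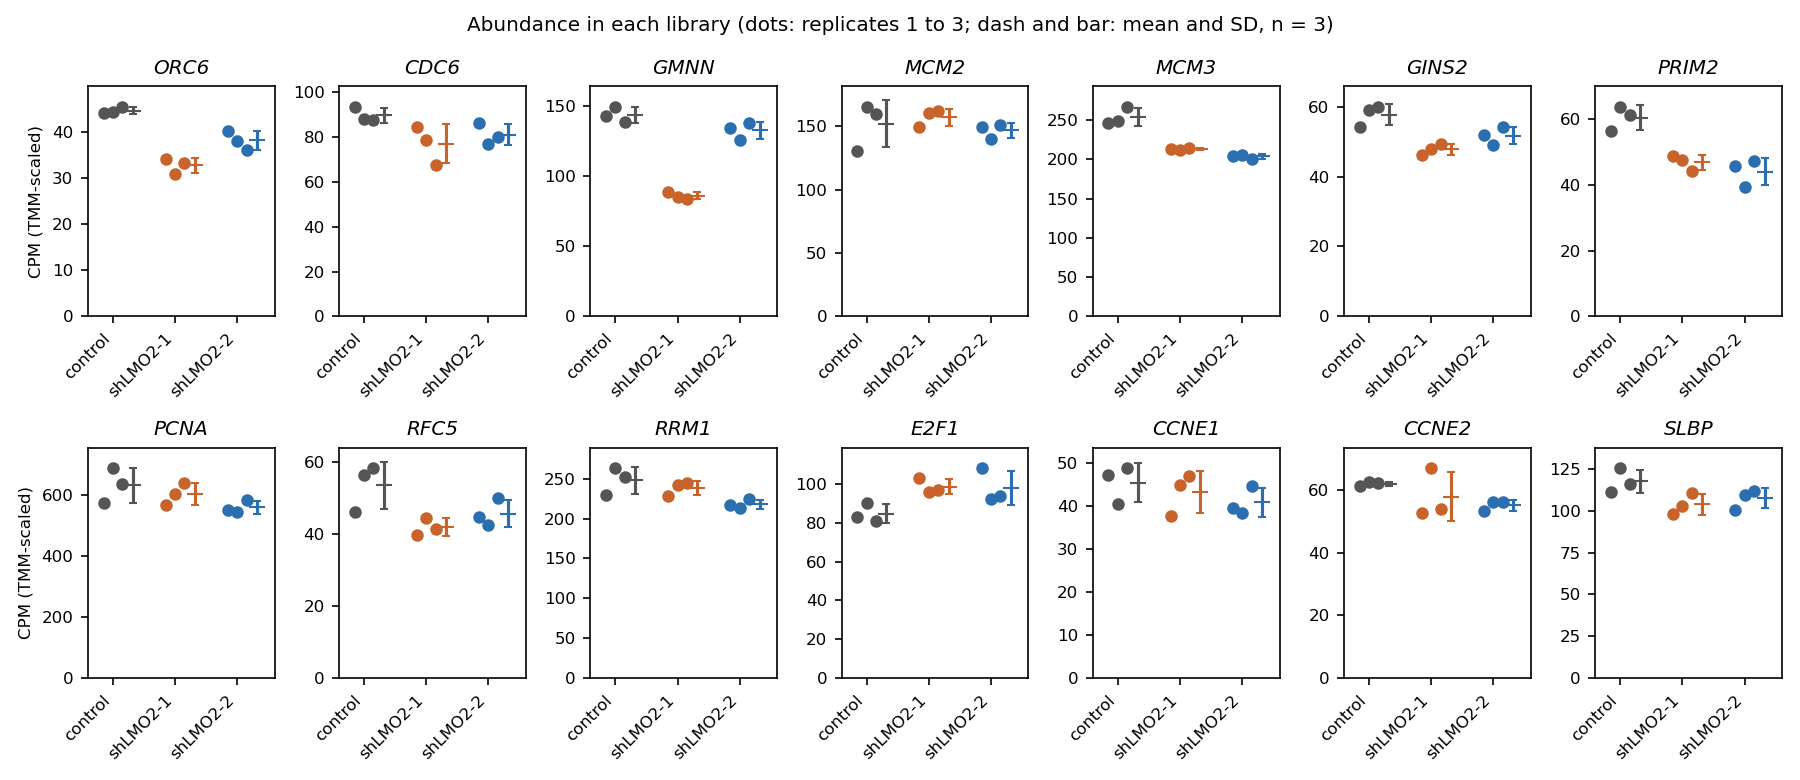
CPM of 14 genes in each library (dots, replicates 1 to 3 from left to right) with the mean and SD of each group (n = 3). GMNN separates shLMO2-1 (83.9 to 89.0 CPM) from both other groups, and MCM3 and PRIM2 lie lower in both hairpin groups than in control.

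Of the MCM2-7 ring, the helicase core, MCM3 alone passed. MCM3 (chromosome 6, 52264009 to 52284881, minus strand) had 246, 249.5 and 267 CPM in control, 213, 212 and 214 with shLMO2-1 and 204.5, 206 and 201 with shLMO2-2. Every hairpin library was below every control, and the hairpin replicates were tightly grouped. MCM3 fell by 16.2% with shLMO2-1 (254 ± 11.1 to 213 ± 1.07 CPM, SD, n = 3 each; log2 fold change −0.26, SE 0.054, adjusted p = 0.0163 by edgeR). It fell by 19.9% with shLMO2-2 (204 ± 2.76 CPM, SD, n = 3; log2 fold change −0.32, SE 0.0539, adjusted p = 0.00567 by edgeR). The call with shLMO2-2 held under all 18 alternatives. That with shLMO2-1 did not pass once control replicate 3 was left out (−0.22, adjusted p = 0.0726) and without shLMO2-1 replicate 1, 2 or 3 (−0.25, −0.26 and −0.26; adjusted p = 0.0585, 0.0619 and 0.0507 by edgeR).

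Its partners in the ring did not pass with either hairpin. MCM2 was at 131, 165 and 159.9 CPM in control, 149, 160.4 and 162 with shLMO2-1 and 149.8, 140.1 and 151 with shLMO2-2, with overlapping groups and log2 fold changes of 0.05 (adjusted p = 0.794) and −0.05 (adjusted p = 0.769, edgeR). Control replicate 1 was the lowest of the 9 libraries. MCM4 was below all controls in all 6 hairpin libraries, at log2 fold changes of −0.09 and −0.14 (adjusted p = 0.307 and 0.109, edgeR). MCM5, MCM6 and MCM7 lay between −0.10 and 0.07. The ring subunits stand in equal numbers in the complex, so their log2 fold changes are set side by side here, but a difference between MCM3 and its partners was not tested.

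Among the helicase activators, GINS2 was the member that passed. GINS2 (chromosome 16, 85676198 to 85690073, minus strand), a subunit of the GINS complex, had 54.3, 58.9 and 59.95 CPM in control, 46.1, 47.9 and 49.3 with shLMO2-1 and 51.9, 49.2 and 54.2 with shLMO2-2. Both hairpin groups lay below the lowest control, the second by a small margin. GINS2 fell by 0.27 on the log2 scale with shLMO2-1 (SE 0.0712, adjusted p = 0.0387 by edgeR), and had −0.16 with shLMO2-2 (adjusted p = 0.19). The call with shLMO2-1 was lost in 9 of 18 alternatives, 7 of which left out a library: control replicate 2 or 3 (adjusted p = 0.0945 and 0.129), shLMO2-1 replicate 1, 2 or 3 (0.127, 0.106 and 0.0767) and shLMO2-2 replicate 1 or 2 (0.0545 and 0.054, all by edgeR). The call in the mean of both hairpins (−0.22, adjusted p = 0.0408) was lost without any of those 7 libraries, at adjusted p from 0.0516 to 0.159. With no filter on low counts that call was lost too. GINS2 overlaps GSE1 on the other strand, and since the use of strand is not given its counts are uncertain to that extent. GINS1, GINS3, GINS4, CDC45 and MCM10 did not pass, with log2 fold changes from −0.14 to −0.03 with shLMO2-1 and from −0.25 to 0.03 with shLMO2-2.

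Of 9 polymerase genes, PRIM2 passed and 8 did not. PRIM2 (chromosome 6, 57314805 to 57646849, plus strand), the large subunit of the primase that lays down RNA primers, had 56.3, 63.8 and 61.4 CPM in control, 48.8, 47.5 and 44.2 with shLMO2-1 and 45.8, 39.3 and 47.2 with shLMO2-2. All hairpin libraries were below all controls, and the hairpin groups overlapped each other. PRIM2 fell from 60.5 ± 3.82 CPM to 46.8 ± 2.40 with shLMO2-1 and to 44.1 ± 4.19 with shLMO2-2 (SD, n = 3 each), log2 fold changes of −0.37 (SE 0.0871, adjusted p = 0.0272) and −0.46 (SE 0.0866, adjusted p = 0.00978, edgeR). The call with shLMO2-2 held in all 18 alternatives. That with shLMO2-1 did not pass once control replicate 2 or 3 was left out (adjusted p = 0.0778 and 0.0835) and without shLMO2-1 replicate 1, 2 or 3 (0.0579, 0.0777 and 0.0957, edgeR). PRIM2 has near-identical transcripts under the symbols ABBA01000935.2 and AC244258.1 and overlaps FO680682.1 on its own strand, so reads divided among them would make its counts uncertain; both named copies had at most 2 counts in a library.

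PRIM1, the catalytic primase subunit that pairs with PRIM2, had positive log2 fold changes of 0.18 and 0.12 that did not pass. PRIM1 overlaps NACA on its own strand and HSD17B6 on the other, so its counts are uncertain. POLD1 and POLD2 of polymerase delta and POLE2 of polymerase epsilon were also above 0 with both hairpins, and POLD2 had the highest values, 0.20 (adjusted p = 0.26) and 0.24 (adjusted p = 0.167, edgeR). POLD2 stood at 172 CPM in control replicate 1 and at 222 and 197 CPM in the others. Polymerases were the group of these genes with a median log2 fold change above 0 with shLMO2-1, at 0.09, and had −0.02 with shLMO2-2.

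Of the clamp, clamp loader and Okazaki fragment genes, none of 8 passed with either hairpin. The sliding clamp PCNA was at 574, 688 and 636.5 CPM in control, 568, 602 and 639 with shLMO2-1 and 552, 544 and 585 with shLMO2-2. Control replicate 1 lay among the hairpin libraries and the other controls above most of them. Its log2 fold change was −0.07 with shLMO2-1 (adjusted p = 0.611) and −0.17 with shLMO2-2 (adjusted p = 0.16, edgeR). Without control replicate 1 that with shLMO2-2 was −0.25 (adjusted p = 0.0377, edgeR). With all libraries kept, PCNA with shLMO2-2 passed with total counts only.

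RFC5, a small subunit of the clamp loader, came closest to the threshold. It had 45.9, 56.2 and 58.1 CPM in control, 39.7, 44.5 and 41.3 with shLMO2-1 and 44.5, 42.4 and 49.8 with shLMO2-2. All shLMO2-1 libraries were below control, and control replicate 1 lay within the range of shLMO2-2. Its log2 fold change was −0.35 with shLMO2-1 (SE 0.101, adjusted p = 0.0562), −0.23 with shLMO2-2 (adjusted p = 0.184) and −0.29 in the mean (adjusted p = 0.0503, edgeR). Without control replicate 1 these values were −0.46 (adjusted p = 0.00905), −0.33 (adjusted p = 0.0374) and −0.40 (adjusted p = 0.0079, edgeR). Without shLMO2-2 replicate 3 the mean was −0.33 (adjusted p = 0.0438, edgeR). RFC5 with shLMO2-1 also passed with all libraries kept, with total counts only (adjusted p = 0.0287), no filter (0.0149), 10 counts in every library (0.0454) and DESeq2 (0.0208), and its mean passed in 8 of 17 alternatives. A block for replicate number gave a call for RFC5 with shLMO2-1 as well. RFC5 overlaps WSB2 on the other strand, which leaves its counts uncertain. RFC3 and RFC4, further small subunits, were below all controls in all 6 hairpin libraries, with log2 fold changes of −0.21 and −0.18 with shLMO2-1 and of −0.13 and −0.21 with shLMO2-2, none of which passed. RFC4 overlaps EIF4A2 on the other strand, so its counts are uncertain as well. LIG1, the ligase that seals Okazaki fragments, was the gene of this group above 0 with shLMO2-1 (0.16, adjusted p = 0.159, edgeR).

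None of the 4 nucleotide supply genes passed. RRM1, the large subunit of ribonucleotide reductase, had 229, 263 and 252 CPM in control, 228.5, 242 and 244.5 with shLMO2-1 and 217, 214 and 225 with shLMO2-2. The shLMO2-2 libraries were below all controls, and shLMO2-1 overlapped them. Its log2 fold changes were −0.06 and −0.18 (adjusted p = 0.101 for the latter, edgeR). Without control replicate 1 the latter was −0.25 (adjusted p = 0.0272) and the mean of both hairpins was −0.18 (adjusted p = 0.0452, edgeR). With all libraries kept, RRM1 passed with total counts only, both with shLMO2-2 and in the mean. With shLMO2-2 it also passed with a block for replicate number. RRM2, the regulated small subunit, had log2 fold changes of −0.04 and 0.00, and thymidylate synthase TYMS had −0.02 and −0.03. Thymidine kinase TK1 had 117, 178 and 165 CPM in the controls, a range that held all 6 hairpin libraries (143 to 173 CPM).

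Among the G1-S regulators, E2F1 was the one member with every hairpin library above every control. E2F1 (chromosome 20, 33675683 to 33686404, minus strand), an activating E2F factor, had 83.0, 90.2 and 80.8 CPM in control, 103, 95.8 and 96.8 with shLMO2-1 and 108, 92.4 and 93.8 with shLMO2-2. The gap between the highest control and the lowest hairpin library was small. Its log2 fold change was 0.22 with shLMO2-1 (adjusted p = 0.111), 0.21 with shLMO2-2 (adjusted p = 0.114) and 0.22 in the mean of both (SE 0.0675, adjusted p = 0.0596, edgeR), so that it did not pass. In the mean it passed with DESeq2 (adjusted p = 0.0325) and with a block for replicate number (adjusted p = 0.0315, edgeR). E2F2, a related factor, had −0.03 with shLMO2-1 and 0.19 with shLMO2-2 and did not pass.

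The cyclins E, which activate the kinase that starts S phase, did not pass. CCNE1 was at 47.2, 40.3 and 48.7 CPM in control, 37.7, 44.8 and 47.01 with shLMO2-1 and 39.5, 38.3 and 44.6 with shLMO2-2, with groups that overlapped and log2 fold changes of −0.07 and −0.15. CCNE2 was at 61.3, 62.6 and 62.4 CPM in control, 52.7, 67.0 and 54.2 with shLMO2-1 and 53.3, 56.4 and 56.2 with shLMO2-2. Its shLMO2-2 libraries were below control, and shLMO2-1 replicate 2 was the highest of all 9. The log2 fold changes of CCNE2 were −0.10 and −0.17, and its counts are uncertain because it overlaps INTS8 on the other strand. CDC25A, the phosphatase that activates cyclin-dependent kinase 2, had −0.18 and −0.05.

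The 4 chromatin replication genes did not pass either. SLBP, which binds the stem-loop of histone mRNAs, was at 111, 125 and 116 CPM in control, 97.8, 103 and 111 with shLMO2-1 and 101, 109.5 and 112 with shLMO2-2. The shLMO2-1 libraries were below all controls and the shLMO2-2 libraries overlapped them. Its log2 fold changes were −0.18 and −0.13, and −0.16 in the mean (adjusted p = 0.135, edgeR). In the mean SLBP passed with total counts only (adjusted p = 0.038, edgeR). CHAF1A and CHAF1B, of the assembly factor that deposits new histones behind the fork, and UHRF1, which brings maintenance methylation to new DNA, had log2 fold changes from −0.11 to 0.03.

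The hairpins were also compared with each other, where the controls enter only through the filter, the scaling and the shared estimate of the spread. GMNN was the 1 gene of 47 that passed, or 2.13%, where 0.768% of all tested genes passed and 0.347% were higher and 0.422% lower with shLMO2-2. Its level was 54.3% higher with shLMO2-2 than with shLMO2-1, with 3 of 3 libraries above all of shLMO2-1 (log2 difference 0.63, SE 0.0626, 95% interval 0.49 to 0.76, adjusted p = 0.00104 by edgeR). The call held under all 18 alternatives, with log2 differences from 0.59 to 0.66. For 46 of the 47 genes the 95% interval of the difference lay within 0.5 of 0 on the log2 scale. The share was 61.8% of all tested genes, which include genes of lower depth. The difference was below 0 for 25 of the 47 genes, against 50.2% of all tested genes. All 3 shLMO2-2 libraries lay above those of shLMO2-1 for ORC6, CDT1, GMNN, GINS1, RFC3, FEN1 and E2F2 (7 genes, where 8.97% of all genes did), and below them for MCM3, POLD1, POLE, LIG1 and RRM1 (5 genes, where 9.12% did).

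Levels within the group differed far more between genes than between conditions. Per kilobase of the main transcript, the control mean was highest for PCNA at 466 CPM per kb, then RRM2 at 269, TYMS at 180 and MCM7 at 153. It was lowest for POLE2 at 5.64 and GINS3 at 8.71 CPM per kb. Of the MCM2-7 ring, MCM7 was followed by MCM3 (79.2), MCM4 (69.2), MCM6 (67.2), MCM2 (42.0) and MCM5 (36.2 CPM per kb). MCM4 and MCM6 changed order between the 3 controls, so that their order was not beyond the spread. The ranges of MCM2 and MCM5 overlapped, since both were low in control replicate 1, but MCM2 was above MCM5 in each of the 3 libraries. GMNN had rank 5 of the 47 in control at 114 CPM per kb, and was at 68.2 with shLMO2-1 and 105 with shLMO2-2. These levels depend on the transcript taken for the length. They are also uncertain where reads can be shared, since TYMS shares sequence with ENOSF1, MCM7 with AP4M1, POLA2 with AP000944.2, RRM2 with AC007240.1 and GINS4 with AC009630.2, genes that themselves held up to 889, 650.3, 546, 49.7 and 41.4 counts in a library.

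**Figure D4:**
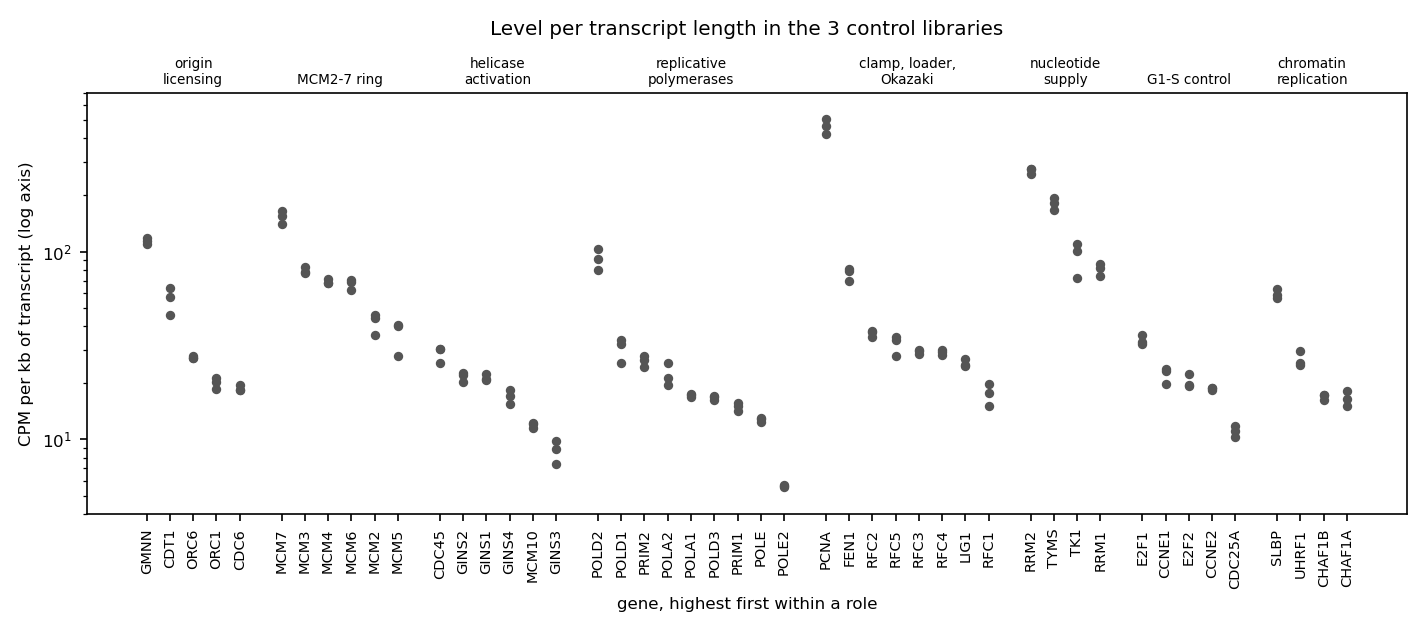
Abundance per kilobase of transcript (CPM per kb, log axis) of each gene in the 3 control libraries (dots), ordered within roles by the control mean. PCNA is highest at a mean of 466 and POLE2 lowest at 5.64 CPM per kb, and the control dots spread most for genes such as TK1 and MCM5, in which replicate 1 is the low dot.

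Other genes of the pathway were taken from lists. Of 43 further replication fork and origin genes, 2 fell with shLMO2-1, 3 with shLMO2-2 and 4 in the mean of both, and none rose, where 3.88%, 4.04% and 5.93% of all tested genes fell. ORC3, another subunit of the origin recognition complex, had 73.2, 76.0 and 83.1 CPM in control, 54.9, 57.0 and 54.0 with shLMO2-1 and 55.6, 53.9 and 57.3 with shLMO2-2. Its hairpin libraries were all well below control, and ORC3 fell by 0.48 on the log2 scale in the mean (adjusted p = 0.000637, edgeR). The histone chaperone RBBP4 (−0.33, adjusted p = 0.00191) and the origin-firing factor TICRR (−0.29, adjusted p = 0.034, edgeR) also fell in the mean. The TICRR call was lost without control replicate 1 or 3, shLMO2-1 replicate 2 or 3, or any 1 of the shLMO2-2 replicates (−0.25 to −0.30, adjusted p = 0.056 to 0.117, edgeR). The median of this list in the mean was −0.09, where the 47 genes had −0.07.

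Of 33 cyclin, CDK, RB and E2F control genes, 32 were tested, and in the mean of both hairpins 2 rose and 4 fell, where 6.47% of all tested genes rose and 5.93% fell. MYBL2, the B-MYB factor that binds the MuvB complex, rose by 0.34 (adjusted p = 0.00248) and cyclin D1, CCND1, by 0.27 (adjusted p = 0.046, edgeR) on the log2 scale. The CDK inhibitors CDKN1C (−0.67, adjusted p = 0.00072) and CDKN2B (−0.44, adjusted p = 0.00548), the pocket protein RBL2 (−0.23, adjusted p = 0.0153) and the MuvB subunit LIN9 (−0.28, adjusted p = 0.0266, edgeR) fell. CDK6 rose with shLMO2-1 (0.46, adjusted p = 0.0353, edgeR). Several of these calls were lost when 1 library was left out. Without any 1 of the libraries other than control replicate 1, the calls of CCND1 (0.17 to 0.28, adjusted p = 0.0551 to 0.135) and CDK6 (0.34 to 0.49, adjusted p = 0.0536 to 0.117, edgeR) were lost, as they were with total counts only. A fit of the compared groups alone also lost the CDK6 call. That of RBL2 was lost without control replicate 3 (adjusted p = 0.0744), and that of LIN9 without control replicate 2 or 3 or shLMO2-2 replicate 1 or 2 (0.0502 to 0.119, edgeR). The CDK inhibitors CDKN1A (−0.11, adjusted p = 0.421) and CDKN2A (0.13, adjusted p = 0.408, edgeR) did not pass in the mean. RB1, the retinoblastoma protein gene, was at 0.41 to 1.44 CPM in every library and did not pass. MDA-MB-468 is known as a line without functional RB1.

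Of 30 mitosis genes, 5 fell in the mean of both hairpins and none rose, where 5.93% of all tested genes fell. They were the checkpoint kinase TTK (−0.30, adjusted p = 0.00556), the kinetochore gene NDC80 (−0.23, adjusted p = 0.0204), topoisomerase TOP2A (−0.23, adjusted p = 0.0215), HMMR (−0.29, adjusted p = 0.0239) and the kinesin KIF23 (−0.22, adjusted p = 0.0446, edgeR). NEK2 fell with shLMO2-1 (−0.31, adjusted p = 0.0359, edgeR). TTK kept its call under every alternative. That of KIF23 was lost with no filter and without any 1 of the libraries other than control replicate 2 (−0.18 to −0.25, adjusted p = 0.0526 to 0.118). Those of HMMR (adjusted p = 0.0532 and 0.0759) and NDC80 (0.0517 and 0.108) were lost without control replicate 2 or 3, and that of TOP2A without control replicate 3 (0.111, edgeR). The NEK2 call was lost without any 1 of the libraries other than control replicate 1 and shLMO2-2 replicate 1 (−0.26 to −0.34, adjusted p = 0.0517 to 0.132, edgeR). A fit of the compared groups alone lost it as well. The median of this list in the mean was −0.15. Of the 6 epithelial markers, 3 rose in the mean of both hairpins, KRT8 (0.43, adjusted p = 0.00243), KRT18 (0.36, adjusted p = 0.019) and EGFR (0.29, adjusted p = 0.0344, edgeR). The other 3 did not pass in the mean, KRT5 at −0.10, EPCAM at −0.12 and CDH1 at −0.12 (adjusted p = 0.284, 0.142 and 0.106, edgeR). With shLMO2-1 alone, 2 of the 6 markers rose and 1 fell by the test, the latter being KRT5 (−0.27). This call of KRT5 was not tried under the alternatives. The KRT18 call was lost without control replicate 3 (adjusted p = 0.0619), and that of EGFR with total counts only and without control replicate 2 or 3, shLMO2-1 replicate 1 or 2 or shLMO2-2 replicate 2 or 3 (0.0566 to 0.12, edgeR). The part of these markers in the values of the replication genes was not tested.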

How the data were processed

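RNA of MDA-MB-468 cells was measured by poly(A)-selected bulk sequencing in 9 libraries, 3 per group, grouped by the plasmid in their labels. The authors deposited 1 table of estimated counts by gene symbol. Per the submitters' processing notes the tools include Salmon 0.12 and DESeq2 1.22.2 and the build GRCh38.p12. The use of strand is not given in the sources used here, so the counts of overlapping genes and near-identical copies are uncertain. Overlaps are named here for some members only, and others overlap further genes too, such as FEN1 with FADS2.

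The estimated counts were rounded to whole numbers and tested with edgeR 4.0.16 in R 4.3.3. Low counts were filtered (filterByExpr, minimum count 10, minimum total 15), and LMO2, which failed, was added back, giving 14709 genes with 99.9% of the counts. TMM scaling was used, and 1 quasi-likelihood fit over all 9 libraries had a factor of 3 groups and no covariate. Adjusted p-values are Benjamini-Hochberg values over all tested genes, with a threshold of 0.05. Standard errors were derived from the fold change and its F statistic, and 95% intervals used the fit's degrees of freedom (median 11.05). CPM uses TMM-scaled totals. The chi-square per gene between libraries within a group was 5.18 to 29.5, above the 1 that counting noise gives, so no library duplicated another of its group. Pairs of libraries from different groups were not checked in this way.

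Genes and transcripts are those of GENCODE 29 (GRCh38), matched by symbol, with lengths from the principal transcript. Near-identical copies were found with BLAST 2.17.0. Promoters are from RefSeq (GRCh38.p14).

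The members and lists were chosen with earlier results of these data known. Values in every library are given for members that passed in any comparison, for the member with the lowest p of each role when both hairpins are averaged, and for E2F1, CCNE1, CCNE2, PCNA, MCM2 and CDC6. Of the other lists, genes that passed and RB1, CCND1, CDKN1A and CDKN2A are named. The values of 1 further list gene that passed are not reported here. Other members named were chosen after their values were seen. The alternatives tried were scaling by median of ratios, by upper quartile or by total counts; leaving the filter out, or asking for 10 counts in each library; limma-voom (limma 3.58.1) and DESeq2 1.42.0; a fit of the compared groups alone; a block for replicate number; a threshold of 0.01; and each library left out in turn.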

Additional observations from a re-analysis of the deposited data

Results flagged for a closer look

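The 2 hairpins differed in GMNN, the geminin gene, by a log2 difference of 0.63 for shLMO2-2 against shLMO2-1 (adjusted p = 0.00104, edgeR's quasi-likelihood test), with shLMO2-1 at 86.1 ± 2.62 CPM and shLMO2-2 at 133 ± 6.11 CPM (SD, n = 3 each). They also differed in the epithelial marker KRT5, a basal keratin, by 0.35 (adjusted p = 0.0362, edgeR). KRT5 had 2483, 2594 and 2867 CPM with shLMO2-1 and 3134, 3364 and 3642 CPM with shLMO2-2, and 3208, 3156 and 3245 CPM in control. Against control, KRT5 was lower with shLMO2-1 (−0.27) and passed edgeR's test. Leaving out a library ended the KRT5 call between the hairpins in 5 cases. The difference was 0.35 (adjusted p = 0.0715) with control replicate 3 omitted, 0.31 (0.164) and 0.33 (0.189) with shLMO2-1 replicate 1 or 2 omitted, and 0.35 (0.137) and 0.29 (0.125) with shLMO2-2 replicate 2 or 3 omitted, all by edgeR.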

How the results depend on the processing

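Of 85 fold changes of named genes, 47 kept their direction and their side of the threshold under every alternative. Of 1489 values under alternatives, 101 lost the call, 39 gained one and 16 changed sign. With shLMO2-1, where 5 of the 47 replication genes passed, the count was 2 at an adjusted p under 0.01 (2.4% of all genes) and between 2 and 8 when a library was left out (3.63% to 9.33%). With shLMO2-2, where 2 passed, it was 6 with total counts only (9.52%), 4 with DESeq2 (12.5%) and between 2 and 5 with a library left out (3.3% to 8.26%). In the mean, where 5 passed, it was 11 with total counts only (14.1%), 9 with DESeq2 (16.1%) and between 4 and 10 with a library left out (6.31% to 10.6%). Between the hairpins it was 1 throughout. The cause of these differences was not tested, though total counts alone moved the median of all genes by −0.04 to −0.05. The main fit did not pair the libraries by replicate number. Correlations of deviations between same-numbered libraries were 0.10 to 0.26 for numbers 1 and 3 and −0.05 to 0.06 for number 2. Not every library correlated best with its own number. The 3 deviations of a group sum to 0, so values near 0 for number 2 do not show that the numbers are unpaired. What the replicate numbers mark is not given. Libraries of number 1 against number 3 gave −0.27 to −0.11. Without a replicate block, 8.42% of all genes passed with shLMO2-1, 8.97% with shLMO2-2, 12.4% in the mean and 0.768% between the hairpins. With the block, 7 genes passed with shLMO2-1 (15.1% of all genes), 5 with shLMO2-2 (16.2%), 10 in the mean (20.6%) and 1 between the hairpins (1.75%). The genes gained were RFC3 and RFC5 with shLMO2-1 (adjusted p = 0.0439 and 0.019), GINS4, POLD2 and RRM1 with shLMO2-2 (0.0453, 0.044 and 0.0482), and CDC6, POLD2, RFC3, RFC5 and E2F1 in the mean (0.0467, 0.032, 0.0405, 0.0166 and 0.0315, edgeR), of which POLD2 and E2F1 were higher. The values that changed sign were all near 0. MCM2 in the mean was 0.0014 with no filter, 0.0034 with limma-voom and 0.0033 with the replicate block, and from −0.105 to 0.064 with a library left out. With a library left out, MCM2 ran from −0.056 to 0.11 with shLMO2-1 and from −0.15 to 0.016 with shLMO2-2, and CCNE1 with shLMO2-1 from −0.15 to 0.016. Between the hairpins E2F1 was 0.0050 with upper-quartile scaling, and with a library left out CDC6 ran from −0.017 to 0.145, E2F1 from −0.086 to 0.031 and CCNE2 from −0.13 to 0.046. A fit of the compared groups alone could not be made for the mean of both hairpins, which uses all groups. Counts of a replication gene in a library ran from 154 to 21230.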
